A study of Mus musculus with 8 samples.

Results

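Toll-like receptor pathway genes were followed in the glomeruli of mice lacking the tetraspanin CD151. They were taken as the rows of the array table whose gene symbol was *Tlr1*, *Tlr2*, *Tlr3*, *Tlr4*, *Tlr5*, *Tlr6*, *Tlr7*, *Cd14*, *Ly96* or *Myd88*. Of these 10 genes, 9 had a row, with 10 probes among the 25697 of the table, and *Tlr5* is not analysed here. Glomeruli came from 3-week-old male mice of the FVB/N strain, 4 *Cd151*+/+ and 4 *Cd151*-/-, and the RNA of each mouse was hybridised to its own Illumina MouseRef-8 v1.1 array. The *Cd151* deletion is carried in every cell of the animal, and on this genetic background it leads to proteinuria with early damage to the basement membrane of the glomerulus. The mice were untreated, and glomeruli were captured on a magnet after beads had been perfused through the heart, and washed up to a minimum purity set by the study. The isolates hold all the cells of a glomerulus together with any tubule left on it.

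Toll-like receptors are membrane proteins that recognise microbial products and molecules released from damaged tissue. TLR2 pairs with TLR1 or TLR6 to bind lipopeptides, and TLR4 binds lipopolysaccharide together with MD-2, the product of *Ly96*, and with CD14, which hands the ligand over. TLR3 and TLR7 sit in endosomes and sense double- and single-stranded RNA. All of these receptors except TLR3 signal through the adaptor MyD88 and the IRAK kinases to NF-κB, TLR4 with a further route through TRIF, and in the kidney they are found on resident cells as well as on leukocytes.

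None of the Toll-like receptor pathway genes that could be tested passed the test between *Cd151*-/- and *Cd151*+/+ glomeruli. The table gave 7 of them a probe above background on all 8 arrays, namely *Tlr2*, *Tlr4*, *Tlr6*, *Tlr7*, *Cd14*, *Ly96* and *Myd88*. Of these, 4 were higher and 3 lower on average in *Cd151*-/- glomeruli, and the differences ran from -0.27 for *Myd88* to 0.37 for *Tlr2* on the log2 scale. The adjusted p-values were 0.918 to 0.966 (limma with Benjamini-Hochberg adjustment over the 14967 probes tested). Across those probes, 0.0334% passed an adjusted p of 0.05, and 4.3% passed it without adjustment, against 0 of the 7 genes under either rule. In no gene of the 7 did the groups fail to overlap, while 2.31% of all tested probes had groups that did not overlap. The median difference of the 7 genes was 0.09, beside -0.01 for all tested probes. It was -0.028 without *Cd151*+/+ mouse 4 and 0.039 to 0.17 without any other single mouse.

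Signals are given as normalised log2 signal, that is, after correction for the background of each array, addition of an offset of 16 and quantile normalisation. This scale understates changes of dim probes, and it does not allow a level to be compared between different probes. A probe was called detected on an array where at most 5% of the array's negative-control probes were as bright, and the probes tested were those detected on at least 1 array. By median signal the arrays fell into 2 sets, and this division was made with the signals of the arrays in view. The set with the higher background had medians of 143 to 164 and held *Cd151*+/+ mice 3 and 4 with *Cd151*-/- mice 1 and 2. The set with the lower background had medians of 65.7 to 77.4 and held *Cd151*+/+ mice 1 and 2 with *Cd151*-/- mice 3 and 4. The labels name no slide or date, so what separates the sets is not known, and each set holds 2 mice of each genotype.

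The label checks came first. *Cd151* itself had a normalised log2 signal of 14.15 to 14.62 in *Cd151*+/+ mice and was detected in none of the *Cd151*-/- mice, where its probe read 4.50 to 4.69. It was at least 523-fold lower there (limma adjusted p = 6.51e-10), a bound set against the lowest detected signal of the *Cd151*-/- arrays. The podocyte marker *Cdkn1c* averaged 15.50 ± 0.05 (SD, n = 4) in *Cd151*+/+ glomeruli, and 7 of 7 tested podocyte markers were detected on all 8 arrays. *Nphs1* and *Synpo* had no row and were not used.

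Among the receptors for lipopeptides, *Tlr2* had the largest average difference of the 7 genes, although with array weights, which give less weight to the more variable arrays, it was 0.062 and that of *Ly96* was 0.66. In *Cd151*+/+ mice 1 to 4 its normalised log2 signal was 7.22, 7.45, 7.27 and 6.69, and in *Cd151*-/- mice 1 to 4 it was 7.23, 7.02, 7.35 and 8.53. The groups overlapped, and *Cd151*-/- mouse 4 stood alone above all the others. The difference was 0.37 (standard error 0.33, 95% interval -0.36 to 1.11), a 1.30-fold ratio with an adjusted p of 0.918 in limma and p = 0.457 in an exact two-sided permutation test over the 70 ways of splitting the 8 mice, which cannot give a p below 0.0286. Without *Cd151*-/- mouse 4 it was 0.04. Within the lower-background set, where that mouse lies, it was 0.61, and within the higher-background set 0.14.

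*Tlr6*, the partner of TLR2 for diacylated lipopeptides, read 8.11, 8.21, 7.69 and 7.05 in *Cd151*+/+ mice 1 to 4 and 7.52, 7.29, 8.14 and 7.79 in *Cd151*-/- mice 1 to 4. These values lay apart by set of arrays, while the genotypes overlapped. The 4 arrays with the higher background averaged 7.39 and lay below the 4 with the lower background, which averaged 8.06. Of all tested probes, 25.2% likewise had sets that did not overlap, 11.6% with the higher-background arrays below. Between the genotypes *Tlr6* differed by -0.08 (95% interval -0.74 to 0.58, limma adjusted p = 0.966), and by -0.19 and 0.04 within the sets.

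*Tlr1*, which lies beside *Tlr6* with 0 protein-coding genes between them in mouse assembly GRCm38.p6 and encodes the other partner of TLR2, was not detected on any array. Its probe read 4.56 to 4.87 in *Cd151*+/+ and 4.67 to 4.99 in *Cd151*-/- mice. At 0.928 to 1.09 times the median signal of undetected probes, it was not well above background in either genotype, and no difference is given.

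**Figure D1:**
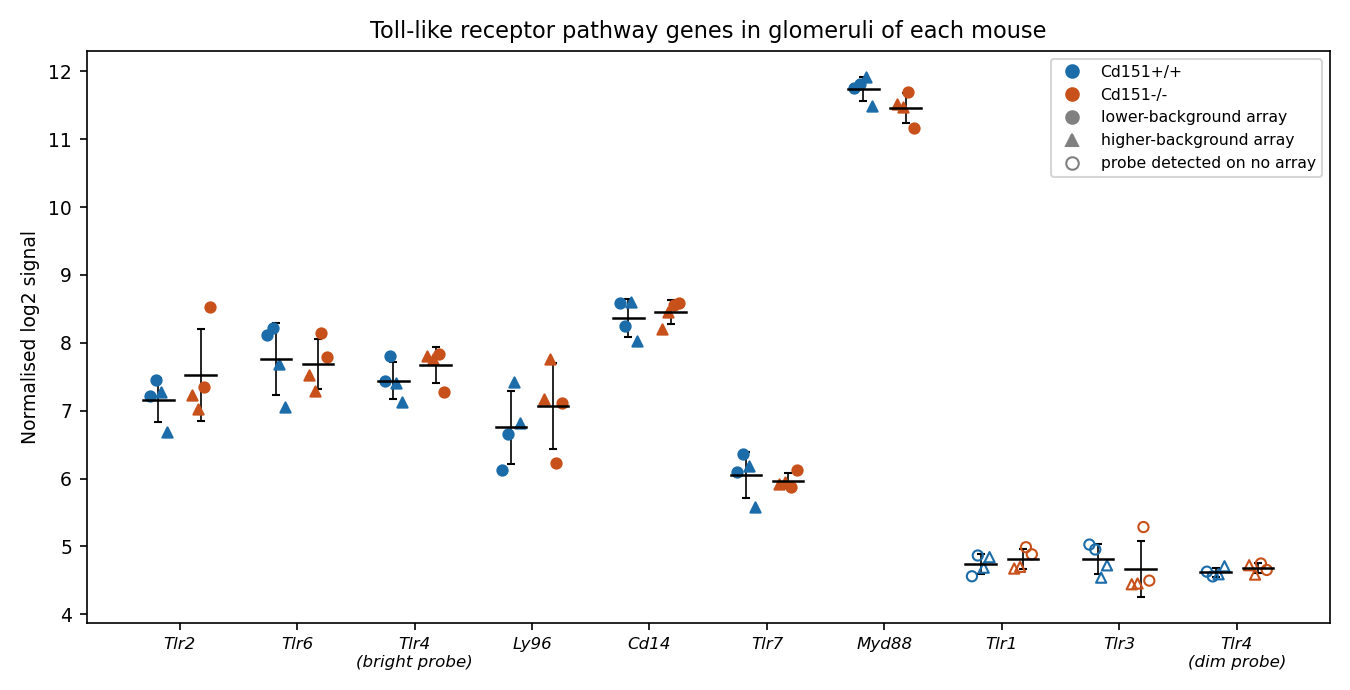
Normalised log2 signal of each probe (vertical axis) in each of the 8 mice, by gene, with the mean and SD of each genotype in black, and with the shape of the point giving the set of arrays. The genotypes overlap at every probe, *Cd151*-/- mouse 4 stands above the rest at *Tlr2* (8.53), and the open points of *Tlr1*, *Tlr3* and the dimmer *Tlr4* probe lie at background. Heights of different probes are not comparable.

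The lipopolysaccharide receptor complex was detected in full in every mouse. *Tlr4*, at its bright probe ILMN_2752966, had signals of 7.44, 7.80, 7.41 and 7.12 in *Cd151*+/+ mice 1 to 4 and of 7.81, 7.76, 7.84 and 7.28 in *Cd151*-/- mice 1 to 4. *Cd151*-/- mice 1 to 3 lay close together at the upper end and *Cd151*-/- mouse 4 within the range of the controls. The difference of 0.23 (standard error 0.23, 95% interval -0.28 to 0.73) did not pass in limma (adjusted p = 0.918, exact permutation p = 0.314). It was 0.52 within the higher-background set and -0.07 within the other. With mice left out in turn it ran from 0.12 without *Cd151*+/+ mouse 4 to 0.36 without *Cd151*-/- mouse 4. The second probe for *Tlr4*, ILMN_2690004, was detected on no array and read 4.56 to 4.75 over the 8 mice, so the probes for this gene disagree on whether it is above background.

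*Ly96* varied most among mice, with a pooled SD of 0.58 within genotypes. Its signals were 6.12, 6.66, 7.42 and 6.82 in *Cd151*+/+ mice 1 to 4 and 7.17, 7.77, 6.24 and 7.11 in *Cd151*-/- mice 1 to 4. Both the lowest *Cd151*+/+ and the lowest *Cd151*-/- value lay on arrays with the lower background, and the sets of arrays differed by 0.76 on average, in the direction opposite to that of *Tlr6*. Between the genotypes the difference was 0.32 (standard error 0.36, 95% interval -0.47 to 1.099, limma adjusted p = 0.918), 0.28 on the lower-background and 0.35 on the higher-background arrays. It was 0.08 without *Cd151*-/- mouse 2 and 0.59 without *Cd151*-/- mouse 3.

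*Cd14*, which passes lipopolysaccharide to the TLR4 complex, was among the steadiest of the genes. It read 8.59, 8.25, 8.59 and 8.02 in *Cd151*+/+ mice 1 to 4 and 8.20, 8.45, 8.55 and 8.59 in *Cd151*-/- mice 1 to 4. The groups overlapped over most of their range, with a difference of 0.09 (standard error 0.22, 95% interval -0.39 to 0.56, limma adjusted p = 0.955). Without *Cd151*+/+ mouse 4, its lowest value, the difference was -0.028.

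Of the receptors for RNA, *Tlr7* was detected in every mouse and *Tlr3* in none. The *Tlr7* signals were 6.09, 6.36, 6.18 and 5.57 in *Cd151*+/+ mice 1 to 4 and 5.92, 5.95, 5.87 and 6.13 in *Cd151*-/- mice 1 to 4. The *Cd151*-/- values lay inside the *Cd151*+/+ range, close to background at 1.25 to 1.67 times the median undetected signal. The difference was -0.09 (standard error 0.22, 95% interval -0.58 to 0.40, limma adjusted p = 0.957), and it changed sign between the sets, at -0.23 and 0.06. *Tlr3* had signals of 4.54 to 5.03 in *Cd151*+/+ and 4.44 to 5.28 in *Cd151*-/- mice, and its lowest detection p-value was 0.0752. *Tlr8*, which neighbours *Tlr7*, was not detected on any array.

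*Myd88*, the adaptor shared by all of these receptors but TLR3, had a bright probe, at 21.7 to 39.2 times the median undetected signal. It read 11.75, 11.81, 11.91 and 11.49 in *Cd151*+/+ mice 1 to 4 and 11.53, 11.47, 11.70 and 11.17 in *Cd151*-/- mice 1 to 4. Only *Cd151*+/+ mouse 4 fell within the *Cd151*-/- range, and without it the groups did not overlap. The mouse left out was the one that overlapped, and the share of all probes was not counted without it, so this supports nothing. The difference of -0.27 (standard error 0.21, 95% interval -0.73 to 0.18) did not pass in limma (unadjusted p = 0.214, adjusted p = 0.918), and the exact permutation p was 0.0857. It was lower in *Cd151*-/- mice within both sets, by -0.35 on the lower-background and -0.20 on the higher-background arrays. With mice left out in turn the difference ran from -0.36 without *Cd151*+/+ mouse 4 to -0.18 without *Cd151*-/- mouse 4. With a pooled SD of 0.20, smaller than that of all but 8.02% of the probes tested, this was the most precisely measured of the genes.

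The intervals state what these arrays could have missed on the normalised scale. That scale understates changes of dim probes, so for a probe as dim as that of *Tlr7* the interval does not limit the change in RNA. The *Tlr4* and *Tlr6* probes were about as dim as that of *Tlr2*. They read 1.94 to 3.83 and 2.48 to 3.29 times the median undetected signal, against 1.78 to 3.72 for *Tlr2*. Their intervals too hold for the normalised scale and not for RNA, and *Cd14* was little brighter, at 2.98 to 5.65. For 5 of the 7 genes, *Tlr4*, *Tlr6*, *Tlr7*, *Cd14* and *Myd88*, the 95% interval of the ratio lay within a 2-fold change in either direction, the widest reaching from 0.600 to 1.49 for *Tlr6*. For *Tlr2* and *Ly96*, whose probes were also dim, it reached upward to 2.15-fold and 2.14-fold on this scale. These data therefore leave room for a rise of at least that size. The unadjusted p-values of the 7 genes ran from 0.214 to 0.796 in limma, and the exact permutation p-values from 0.0857 to 0.857.

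**Figure D2:**
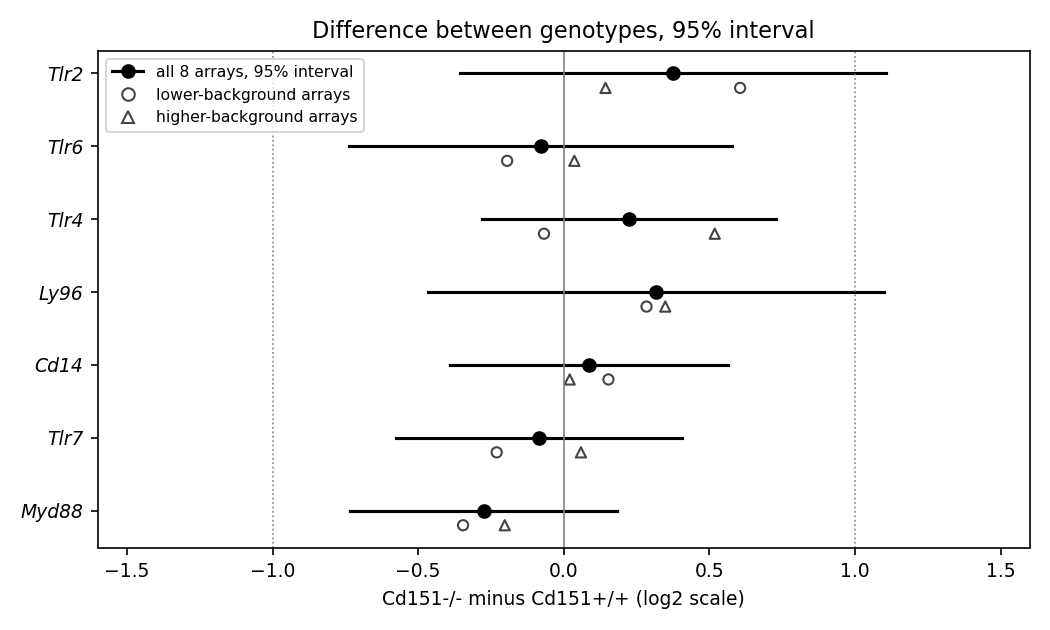
Difference between *Cd151*-/- and *Cd151*+/+ mice on the log2 scale (horizontal axis) for the 7 genes tested, with filled points for all 8 arrays, bars for the 95% interval from limma, and open symbols for the difference within each set of arrays (2 mice against 2). Dotted lines mark a 2-fold change. Every interval includes 0, and the estimates of *Tlr4*, *Tlr6* and *Tlr7* lie on opposite sides of 0 in the 2 sets.

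In *Cd151*+/+ mouse 4, 7 of the 7 genes were below their own mean over the 8 mice, and 5 of them, *Tlr2*, *Tlr4*, *Tlr6*, *Tlr7* and *Cd14*, had their lowest value there, while *Ly96* and *Myd88* were below their means by less, at -0.09 and -0.11, and not the lowest. Among all tested probes 51.3% were below their own mean in that mouse and 9.59% had their lowest value there. The proximal tubule markers summed to a normalised linear signal of 70635 in this mouse, against 23227 to 50972 in the other *Cd151*+/+ mice, and the podocyte markers to 108304 against 112549 to 114131. The tubule sum was higher still in *Cd151*-/- mice 1 and 4, at 79505 and 89934, where 5 and 2 of the 7 genes were below their own mean. The part of either sum in the low values was not tested. In a mixed isolate, fewer cells of a type and less RNA per cell cannot be told apart.

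**Figure D3:**
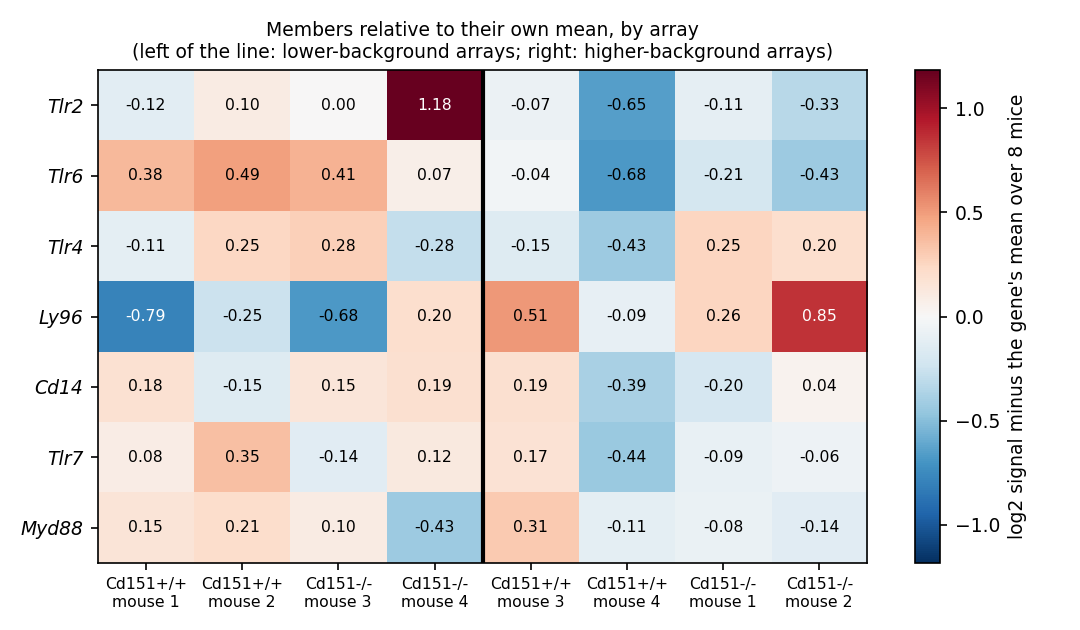
Normalised log2 signal of each gene (rows) in each mouse (columns) minus the gene's mean over the 8 mice, coloured from blue (below) to red (above), with the lower-background arrays left of the black line. *Cd151*+/+ mouse 4 is below the mean in every row, *Tlr6* is above the mean on the left and below it on the right, and *Tlr2* in *Cd151*-/- mouse 4 is the most extreme cell.

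The likeness of a pattern over the mice was measured as the mean absolute difference of centred log2 signals over the 8 arrays, which is also small for any pair of genes that vary little. The mean absolute deviation of the 7 genes from their own means was 0.18 for *Tlr7*, 0.19 for *Cd14* and *Myd88*, 0.24 for *Tlr4*, 0.32 for *Tlr2*, 0.34 for *Tlr6* and 0.45 for *Ly96*. Of all tested probes, those closest to *Myd88* were for *Ppp1ca*, *Ppp4c* and *Mtch1*, at 0.05 to 0.06 each. The closest to *Tlr2* was that for *Chat* (0.09), to *Tlr4* that for *Slc24a3* (0.08), to *Tlr6* that for *Mlkl* (0.08), to *Tlr7* that for *BC027231* (0.08), to *Cd14* that for *LOC192950* (0.05) and to *Ly96* that for *Grcc2f* (0.11). With 8 arrays and 14967 probes, such neighbours are a description only.

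Beyond these genes, 100 others of the pathway were listed by role, of which 97 had a row, 66 were tested and 45 were detected on all 8 arrays. At an unadjusted p of 0.05, 1 was higher and 2 were lower in *Cd151*-/- glomeruli, beside 1.69% and 2.61% of all tested probes. The groups did not overlap for 2 that were higher and 1 that was lower, beside 0.855% and 1.46%. The median difference of the 66 was -0.07.

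The receptors and chaperones were the least covered. *Tlr8*, *Tlr11*, *Tlr12*, *Tlr13*, *Cd36*, and *Cd180* with its partner *Ly86* were detected on no array. *Tlr9* and *Hsp90b1* had no row. The 3 tested were *Lbp*, the plasma protein that carries lipopolysaccharide, *Cnpy3*, a folding chaperone of the receptors, and *Unc93b1*, which escorts the endosomal receptors. *Unc93b1* alone was detected in all 8 mice, at 9.20 ± 0.29 in *Cd151*+/+ and 8.77 ± 0.33 in *Cd151*-/- mice (SD, n = 4), a difference of -0.42 that did not pass in limma (adjusted p = 0.918). Lack of detection describes the probe as well as the gene, since the probes for *Hmgb1*, *Map3k7* and *Irak1*, named after their values were seen and active in most cells, were also detected on no array.

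Of 15 tested adaptors and kinases, 13 were detected on all 8 arrays, 11 were lower and 4 higher on average, with a median of -0.22. Among them 0 passed at an unadjusted p of 0.05. *Ikbke*, counted with the higher, was tested only because it was detected in 1 *Cd151*-/- mouse, so its direction supports nothing. *Traf6*, the ubiquitin ligase downstream of MyD88, had signals of 9.13, 9.21, 9.30 and 9.12 in *Cd151*+/+ mice 1 to 4 and of 9.02, 8.95, 9.05 and 9.06 in *Cd151*-/- mice 1 to 4. Every *Cd151*-/- mouse was below every *Cd151*+/+ mouse, by a mean difference of -0.17 (exact permutation p = 0.0286), which did not pass in limma (adjusted p = 0.918). That difference was -0.12 and -0.23 within the sets of arrays. It rests on the brighter of 2 tested *Traf6* probes, and with the mean of both the difference was -0.0205 (limma adjusted p = 0.986).

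The 10 tested transcription factors had a median of -0.21. *Jun*, a subunit of AP-1, had signals of 12.20, 12.15, 11.19 and 11.81 in *Cd151*+/+ mice 1 to 4 and of 10.61, 11.02, 11.25 and 10.25 in *Cd151*-/- mice 1 to 4. Only *Cd151*+/+ mouse 3 lay within the range of the *Cd151*-/- mice. The difference of -1.06 had an unadjusted p of 0.00453 and an adjusted p of 0.918 in limma. The study had already listed *Jun* as lower, so this restates that result. Over the 19 alternatives the unadjusted p of *Jun* in limma was 0.000243 to 0.0160, and its lowest adjusted p was 0.0885, with array weights. *Irf8*, a factor of myeloid cells listed on the array as *Icsbp1*, was above background in 3 *Cd151*-/- mice and in 0 *Cd151*+/+ mice. Its signals were 5.06 to 5.18 against 5.34 to 5.53, without overlap (limma adjusted p = 0.918), and against the lowest detected signal of the *Cd151*+/+ arrays it was at least 1.05-fold higher. The fitted difference of 0.35 was 0.14 without normexp background correction, 0.15 with scaling to the 75th percentile and 0.19 with an offset of 50. The probe was tested only because it was detected in *Cd151*-/- mice, and it is not among the probes detected on all 4 arrays of a group, so its place among the genes without overlap supports nothing. Among the 10 tested inhibitors of the pathway 0 passed at an unadjusted p of 0.05, and their median was -0.04.

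The 11 tested endogenous ligands had a median of 0.59, with 8 higher and 3 lower, and 1 of them, *Spon2*, passed. *Saa3* was tested only through *Cd151*-/- mice and *S100a9* only through *Cd151*+/+ mice, so their directions support nothing. The study had already reported *Spon2* as raised, and the list was chosen with that known, so the call of *Spon2* restates that result. The study described its product as an integrin ligand. Its place among the ligands was a choice of this list, and binding to a Toll-like receptor was not tested. *Spon2* encodes mindin, a matrix protein that binds lipopolysaccharide and integrins, and rose by 2.51 on the log2 scale (standard error 0.30, adjusted p = 0.0137, limma), from 9.06 to 10.48 in *Cd151*+/+ to 12.20 to 12.78 in *Cd151*-/- mice. In the same mice *Tlr4* differed by 0.23, *Ly96* by 0.32 and *Cd14* by 0.09, none of which passed. The adjusted p of *Spon2* in limma was between 0.0557 and 0.0865 without *Cd151*+/+ mouse 1 or 3 or without *Cd151*-/- mouse 1, 3 or 4. It was 0.101 with no detection filter and 0.182 with the mouse number as a block. Its range over the 19 alternatives was 0.00400 to 0.182. The difference itself ran from 2.24, without *Cd151*+/+ mouse 4, to 2.71, without *Cd151*+/+ mouse 2.

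The 17 tested target genes of the receptors had a median of 0.07, 9 higher and 8 lower, and 8 were detected on all 8 arrays. *Cxcl2*, *Ccl5* and *Lcn2* were tested only through *Cd151*-/- mice and *Il12a* only through *Cd151*+/+ mice, so their directions support nothing. *Zfp36*, whose product speeds the decay of cytokine mRNA, was the 1 target gene that passed an unadjusted p of 0.05. It read 14.31, 14.23, 13.32 and 14.10 in *Cd151*+/+ mice 1 to 4 and 12.97, 13.78, 13.38 and 11.87 in *Cd151*-/- mice 1 to 4. *Cd151*+/+ mouse 3 again lay among the *Cd151*-/- mice, and the difference was -0.99 (limma unadjusted p = 0.0282, adjusted p = 0.918), -1.64 on the lower-background and -0.34 on the higher-background arrays. The unadjusted p in limma was 0.0514 to 0.0738 without *Cd151*+/+ mouse 1, 2 or 4 or *Cd151*-/- mouse 1 or 4, and the difference was -0.61 without *Cd151*-/- mouse 4.

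**Figure D4:**
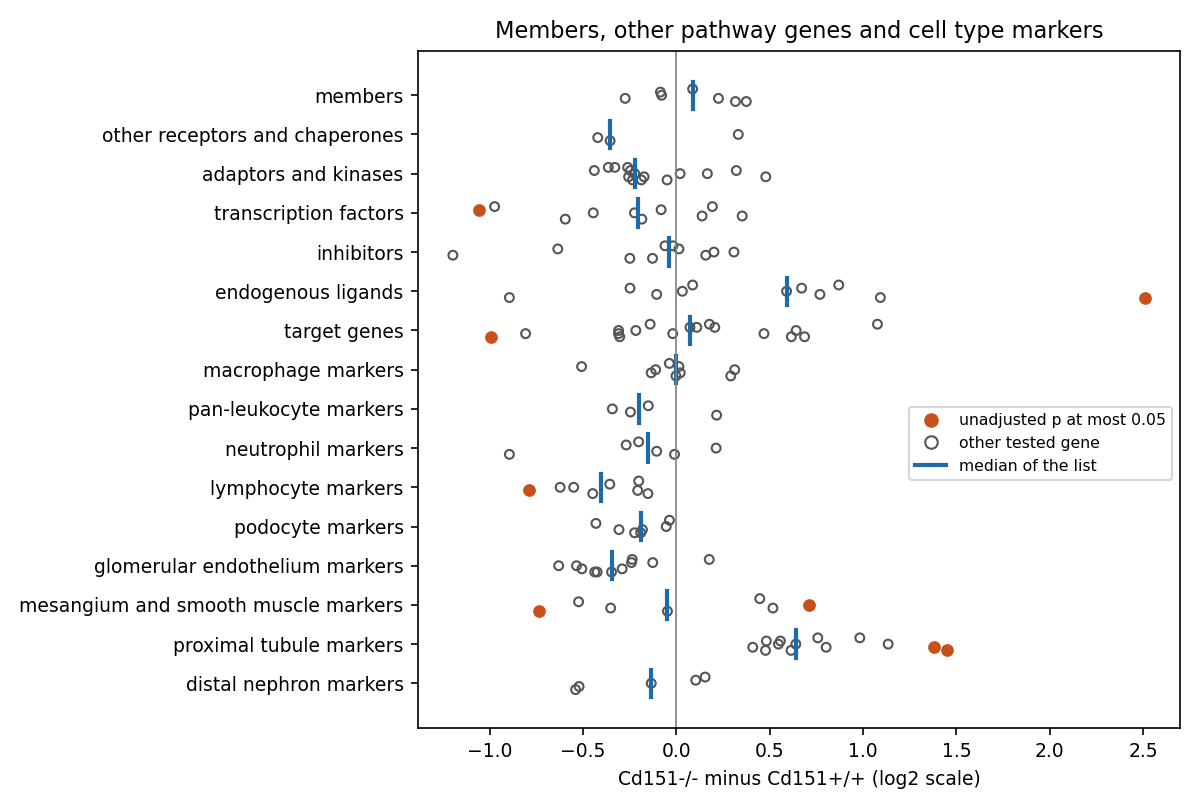
Difference between *Cd151*-/- and *Cd151*+/+ mice on the log2 scale (horizontal axis) of each tested gene, in rows for the 7 Toll-like receptor pathway genes (members), the lists of other pathway genes and the marker lists. Filled points have an unadjusted p of at most 0.05 in limma and blue bars are list medians, which lie at 0.09 for the 7 genes, 0.59 for the endogenous ligands and 0.64 for the proximal tubule markers.

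Markers of macrophages and other leukocytes, cells rich in Toll-like receptors, were detected in part. Of 23 macrophage and pan-leukocyte markers with a row, 10 were detected on no array, beside 41.8% of all probes, and 4 macrophage and 3 pan-leukocyte markers were detected on all 8 arrays. Those on no array included *Adgre1*, listed as *Emr1*, *Itgam*, *Fcer1g*, *Ptprc* and *Cd53*. The differences of the 9 tested macrophage markers ran from -0.51 for *Mrc1* to 0.31 for *Cx3cr1*, with a median of -0.0025. Those detected on all 8 arrays went both ways, with 0.29 for *Cd68*, -0.04 for *Aif1*, -0.14 for *Lyz2* and -0.51 for *Mrc1*, and none passed. The macrophage markers summed to 2273 to 4355 in *Cd151*+/+ and 1731 to 3657 in *Cd151*-/- mice, with *Mrc1* the brightest, and the 4 pan-leukocyte markers to 930 to 1450 and 970 to 1166, with *Laptm5* the brightest. Both sums overlapped between the genotypes. The pan-leukocyte markers had a median difference of -0.20, with 0.22 for *Laptm5*, -0.25 for *Cd52*, -0.15 for *Itgb2* and -0.34 for *Coro1a*. The genotypes did not overlap for *Coro1a*, a leukocyte actin regulator, and none of the 4 passed in limma (adjusted p = 0.918 to 0.938).

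The 6 tested neutrophil markers had a median difference of -0.15, with *Ltf* the brightest. The 8 tested lymphocyte markers were all lower on average (median -0.40), and *Cd3d*, part of the T cell receptor complex, was above background in every *Cd151*+/+ mouse and in 1 *Cd151*-/- mouse, at 5.93 ± 0.30 and 5.15 ± 0.36 (SD, n = 4), without overlap (limma adjusted p = 0.918). The difference of -0.79 for *Cd3d* was -0.34 without normexp background correction and -0.45 with an offset of 50. Podocyte markers had a median of -0.19, with 7 of 7 lower on average and *Cdkn1c* the brightest, glomerular endothelium markers of -0.35, with 10 of 11 lower and *Emcn* the brightest, and distal nephron markers of -0.13, with *Umod* the brightest.

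Of the mesangium and smooth muscle markers (median -0.05), *Acta2*, the brightest, had an average difference of 0.71 and *Pdgfrb* of -0.74, with unadjusted p-values of 0.0185 and 0.0399 in limma and an adjusted p of 0.918 each. With mice left out in turn the unadjusted p from limma reached 0.0589 for *Acta2*, without *Cd151*-/- mouse 2, and 0.117 for *Pdgfrb*, without *Cd151*-/- mouse 4. With the mean of its detected probes, *Acta2* differed by 0.52 with an unadjusted p of 0.0678 in limma. The 13 proximal tubule markers were all higher on average in *Cd151*-/- mice, with a median of 0.64. *Slc34a1* was the brightest of them, and *Slc22a8* (1.45) and *Kap* (1.38) had an unadjusted p of 0.05 or lower (limma adjusted p = 0.744 and 0.918), the unadjusted p of *Kap* reaching 0.0938 without *Cd151*+/+ mouse 1. *Kap* differed by 0.76 without *Cd151*-/- mouse 4, and *Slc22a8*, detected in 1 *Cd151*+/+ mouse, by 0.68 without normexp background correction and 0.87 with an offset of 50. The summed signal of the 13 was 23227 to 70635 in *Cd151*+/+ and 46551 to 89934 in *Cd151*-/- mice. The part of tubule, lymphocyte, podocyte and endothelium content in the values of the Toll-like receptor pathway genes was not tested.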

How the data were processed

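Glomerular RNA of 4 *Cd151*+/+ and 4 *Cd151*-/- mice was measured on 8 arrays, grouped by the sample labels. The authors deposited the signal intensity of each probe, read with the BeadArray Reader and GenomeStudio (version not given in the sources used here), neither background-subtracted nor normalised, and a detection p-value in steps of 1 over 798. The study itself used cubic spline values and SAM, and SAM was not run here. Background was inferred per array from those p-values, and neqc (offset 16, quantile normalisation), lmFit and eBayes of limma 3.58.1 were run in R 4.3.3. A probe entered the fit if any array had it at a detection p-value of at most 0.05, and p-values were adjusted by Benjamini-Hochberg over every probe fitted. Of several probes of a gene, that with the highest mean was used. Older symbols were matched through a synonym held by 1 gene in the RefSeq table of GRCm38.p6. Where a whole group lacked detection of a probe, the bound used the lowest detected signal on each of those arrays.

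Named were all the Toll-like receptor pathway genes above, other pathway genes with an unadjusted p of 0.05 or lower or groups without overlap, *Spon2*, *Cd151*, the brightest marker of each list and markers with such a p, and the closest probes in pattern; *Unc93b1*, the leukocyte and macrophage markers given with values and genes on no array were named after their values were seen. The genes and lists were chosen with earlier results of these data known. Alternatives were no normexp, cubic spline (15 quantiles, re-implemented on log2 signals), scaling to the 75th percentile, offset 50, other detection filters, mouse number or set of arrays as a block, trended and robust variance, array weights, the mean of a gene's probes and each mouse left out. The fit was tested on simulated data, and no result of that test is given here. The number of arrays, and detected signals 3.01 to 4.54 times the undetected at the median, limit the precision. A further podocyte marker is not reported here.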

Additional observations from a re-analysis of the deposited data

Results flagged for a closer look

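In groups of 4 mice, the highest or lowest value was compared with the rest by its gap to the nearest mouse over the whole range, in 56 groups of 4 values, and 4 stood apart by Dixon's 95% limit; chance gives about 1 in 20. *Tlr4* in *Cd151*-/- mouse 4 was low, at 7.28, where the other *Cd151*-/- mice lay between 7.76 and 7.84. Without this mouse the difference of *Tlr4* between the genotypes was 0.36, and without *Cd151*+/+ mouse 4 it was 0.12. *Spon2* in *Cd151*-/- mouse 3 was high, at 12.78, where the next mouse of that genotype was at 12.29. *Cd3d* in *Cd151*+/+ mouse 4 was high, at 6.39, with the next at 5.84. The summed signal of the lymphocyte markers in *Cd151*+/+ mouse 1 was low, at 211, where the other *Cd151*+/+ mice lay between 283 and 297.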

How the results depend on the processing

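Over 11 other settings and with each of 8 mice left out in turn, none of the 7 Toll-like receptor pathway genes passed Benjamini-Hochberg adjustment in limma. The lowest adjusted p from limma was 0.149, for *Ly96* with array weights. With these weights it was the 1 gene past 0.05 without adjustment. *Tlr2*, *Tlr4*, *Ly96* and *Myd88* kept their direction throughout. *Cd14* turned to -0.046 with array weights, which also gave 0.062 for *Tlr2*, -0.42 for *Tlr6*, -0.20 for *Tlr7* and 0.66 for *Ly96*. With mice left out, the difference was -0.028 to 0.17 for *Cd14*, -0.32 to 0.071 for *Tlr6* and -0.25 to 0.018 for *Tlr7*. The median of the 7 genes was then -0.028 to 0.17 (-0.046 with array weights). Groups did not overlap in 0 to 1 gene, *Myd88* without *Cd151*+/+ mouse 4. That was the mouse that overlapped, and the share of all probes was not counted without it. Of the other pathway genes, the number past adjustment was 0 with no detection filter and 0 with the mouse number as a replicate block, and 0 to 1 with mice left out. At an unadjusted p of 0.05, the higher genes numbered 2 with no detection filter, 2 with the replicate block, 8 with array weights, 6 with array set blocked and 1 to 4 with mice left out. The lower genes numbered 15 with array weights, 5 with array set blocked and 1 to 6 with mice left out. The share of all probes past that p in either direction was 4.3% as reported, 4.26% with no detection filter, 2.81% with the replicate block, 32.2% with array weights, 11.3% with array set blocked and 2.36% to 9.41% with mice left out. The cause of these changes was not tested. Mice of the same number in the 2 genotypes do not form pairs by the labels. Their deviations from the group means correlated across probes at -0.58, -0.40, -0.53 and -0.01, and no mouse matched its own number best. Every same-number pair joined a lower-background with a higher-background array, so a block by mouse number does not take up the difference between the sets.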
